A study of Homo sapiens with 6 samples.

Results

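The genes described here encode the proteins of the mitochondrial ribosome and were chosen by name, as protein-coding genes whose symbol begins with MRPL or MRPS. They numbered 78 of the 58735 genes counted, and 77 of them had enough reads to be tested. RNA was sequenced from AsPC-1, an established cell line from human pancreatic cancer, in 6 libraries. The Vector group (n = 3) carried an empty lentivirus, and the OE-MMP28 group (n = 3) carried the same kind of lentivirus with the MMP28 cDNA, which encodes a matrix metalloproteinase that cells secrete. Per the study's methods the virus brings GFP and puromycin resistance, so the cells of both groups were infected and kept under puromycin to give stable lines. Whether a group was 1 infected pool or 1 clone is not given in the sources used here. The study's methods give 3 samples per group for sequencing and, for its cell experiments in general, repeats made independently, while the labels do not say whether these 3 replicates were separate cultures. The p-values below therefore measure the spread between these libraries, which may be technical.

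Mitochondria hold their own ribosome, which translates the few mRNAs of the mitochondrial genome into core subunits of the respiratory chain and the ATP synthase. Its rRNAs are transcribed inside the organelle, from MT-RNR1 for the small subunit and MT-RNR2 for the large subunit, whereas all of its proteins are encoded in the nucleus, made in the cytosol and imported. Compared with the bacterial ribosome it descends from, it has shortened rRNAs and many added proteins, and its products are inserted directly into the inner membrane.

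The mRNAs of the mitochondrial ribosomal proteins were more abundant in OE-MMP28 cells, by a small margin and unevenly across genes. Of the 77 tested, 27 rose (35.1%), 2 fell (2.60%) and 48 did not pass the test, at an adjusted p under 0.05 (edgeR's quasi-likelihood test, Benjamini-Hochberg over all genes tested). Over all 15319 genes tested, 11.7% were called higher and 11.6% lower (23.4% in either direction), and among protein-coding genes 13.5% were called higher and 12.1% lower. The median log2 fold change, given throughout as OE-MMP28 minus Vector, was 0.39 over the members (1.31-fold) and 0.014 over all genes tested. The sign was positive in 64 members and negative in 13, while 51.2% of all genes tested lay above 0. The 27 that rose did so by between 1.40-fold and 2.20-fold. At an unadjusted p under 0.05, 40 members were higher and 3 lower.

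**Figure D1:**
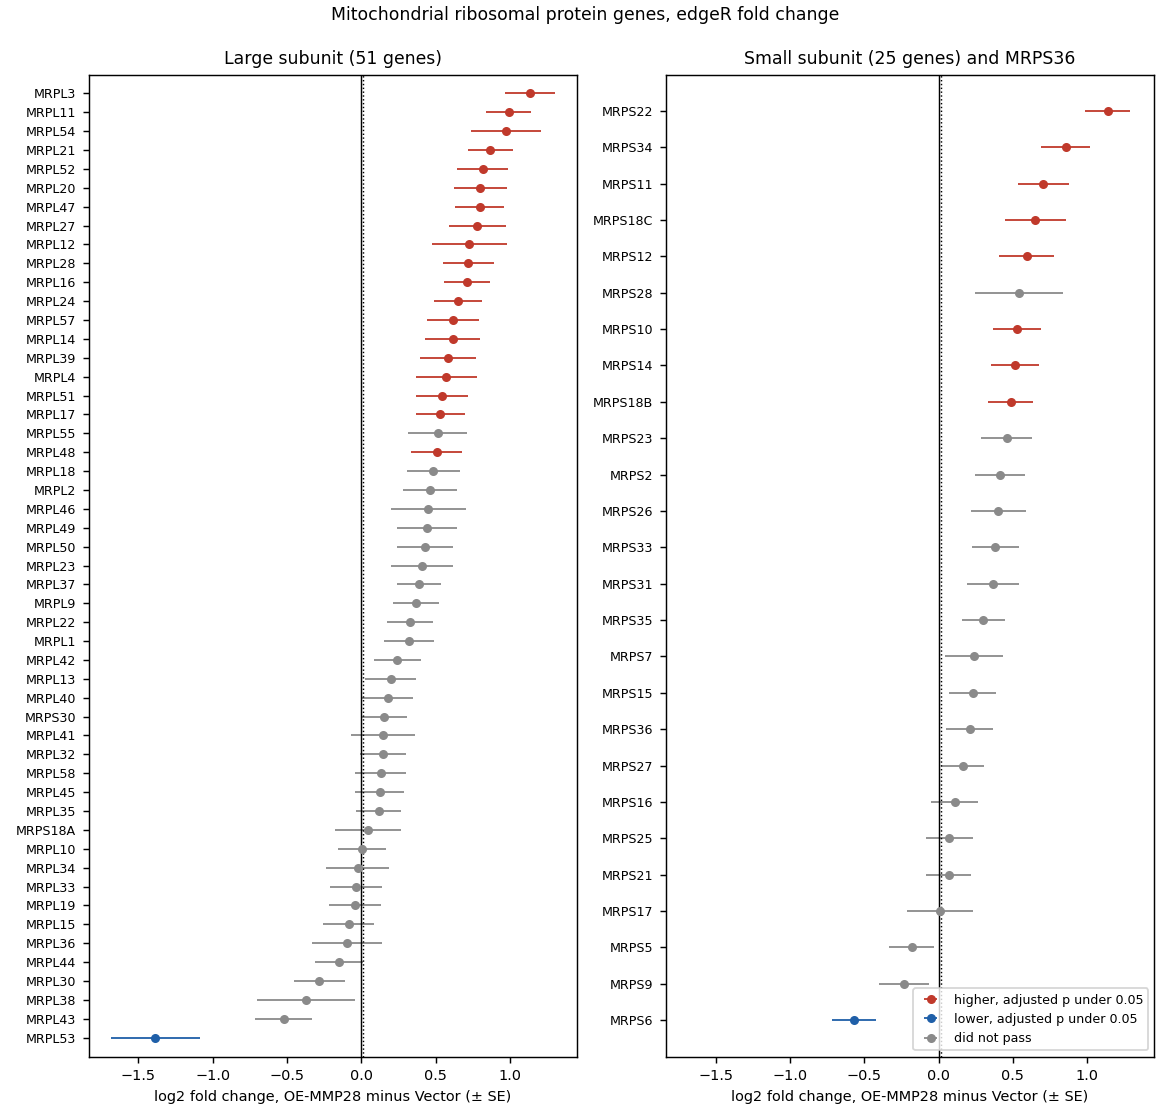
Log2 fold change (x axis, OE-MMP28 minus Vector) of each of the 77 tested members, ranked within the large subunit (left) and the small subunit with MRPS36 (right); points are edgeR estimates, bars their standard errors, and the dotted line the median of all genes tested (0.014). Red points (27) passed the test as higher, blue points (2, MRPL53 and MRPS6) as lower, and the grey points that did not pass lie between -0.52 and 0.54.

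How many members passed depended on single libraries. Without OE-MMP28 replicate 3 the count of members called higher was 14, without OE-MMP28 replicate 2 it was 15 and without Vector replicate 3 it was 16, and it was 17 with limma on log2(FPKM + 1). The median log2 fold change of the members stayed between 0.31 and 0.41 under all 20 alternatives. In all of those alternatives 7 of the 27 were still called higher, namely MRPS22, MRPL3, MRPL11, MRPL21, MRPS34, MRPL20 and MRPS11, and MRPL53 was still called lower.

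The libraries held between 13633249 and 16691458 counted reads, with the 3 OE-MMP28 libraries deeper than the 3 Vector libraries. MMP28 itself was at 5.17, 9.11 and 8.43 FPKM (fragments counted on a gene, divided by the gene's length and by the size of the library) in Vector replicates 1 to 3 and at 13.1, 13.9 and 15.1 FPKM in OE-MMP28 replicates 1 to 3, a log2 fold change of 0.90 (SE 0.19, edgeR adjusted p = 0.00226), in the direction of the labels. KRT8, KRT18, KRT19, EPCAM and CDH1, which mark pancreatic epithelial cells, were all expressed, with a summed level of 3028 ± 471 FPKM in Vector and 3900 ± 394 FPKM in OE-MMP28 (SD, n = 3). KRT19 rose by 0.71 and CDH1 fell by 0.59 on the log2 scale. Of 10 markers of leukocytes, endothelium, fibroblasts and other pancreatic cells, 3 had enough reads to be tested, PRSS1 and INS had no read in any library, and the summed level was 1.24 ± 0.030 FPKM in Vector and 1.09 ± 0.058 FPKM in OE-MMP28. PECAM1, the 1 marker of these that rose, went from 0.0244 to 0.169 FPKM. In bulk RNA, fewer cells of a type and less RNA per cell cannot be told apart.

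Summed over the 78 genes, the mRNAs stood at 1447, 1276 and 1329 FPKM in Vector replicates 1 to 3 and at 1674, 1717 and 1856 FPKM in OE-MMP28 replicates 1 to 3. All 3 OE-MMP28 libraries were above all 3 Vector libraries. As a share of all counts, the members took 0.326% ± 0.025 in Vector and 0.409% ± 0.018 in OE-MMP28 (SD, n = 3), 1.25 times as much.

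The members with the clearest rise belong to both subunits. MRPS22 (chr3:139005806-139357223, plus strand, GRCh38), a small subunit protein without a bacterial counterpart, stood at 5.75, 5.44 and 5.85 FPKM in Vector and at 13.6, 11.5 and 12.1 FPKM in OE-MMP28. Its lowest OE-MMP28 library was far above its highest Vector library. The log2 fold change was 1.14 (SE 0.15, edgeR adjusted p = 2.89e-05), the largest rise among the members. MRPL3 (chr3:131462212-131502983, minus strand) encodes the mitochondrial form of ribosomal protein L3, which reaches towards the peptidyl transferase centre, where peptide bonds are made. It was measured at 36.5, 23.5 and 31.0 FPKM in Vector and at 77.2, 60.1 and 61.2 FPKM in OE-MMP28, so the groups were well apart (log2 fold change 1.13, SE 0.17, adjusted p = 8.44e-05). MRPL11 (chr11:66435075-66466738, minus strand) encodes the mitochondrial L11, part of the site where translational GTPases dock. Its levels were 21.3, 18.0 and 19.2 FPKM in Vector against 35.9, 38.5 and 41.0 FPKM in OE-MMP28, again without overlap (log2 fold change 0.99, SE 0.15, adjusted p = 1.04e-04).

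Promoter sequence is shown for 6 members, chosen because they had the largest rises, passed as lower, or belong to the MRPS18 family treated below, so that the start regions of genes that moved in opposite directions can be read side by side. The sequences come from RefSeq on build GRCh38.p14 and run from 220 bases before to 30 bases after the annotated start, 5′ to 3′ on the strand of the gene. For MRPS22 the window was picked by its motif content, as the first of 2 that held the most kinds of searched motif. The other genes shown had 1 window each. Capitals mark 2 motifs, searched on both strands: CCGGAAG, a core sequence bound by ETS factors such as GABP, and GCATGCGC, a core sequence bound by NRF1. The window of MRPS22 is chr3:139343774-139344023 on the plus strand, inside the span given for the gene above, which begins at a start further upstream. The window of MRPL3 is chr3:131502942-131503191 (minus strand), that of MRPL11 is chr11:66438819-66439068 (minus strand), that of MRPS18C is chr4:83455838-83456087 (plus strand), that of MRPS6 is chr21:34073358-34073607 (plus strand) and that of MRPL53 is chr2:74472651-74472900 (minus strand). The windows of MRPL11, MRPS6 and MRPL53 also lie wholly inside the spans given for these genes. The pairs of neighbouring starts described further below use the outermost start of each gene instead.
MRPS22: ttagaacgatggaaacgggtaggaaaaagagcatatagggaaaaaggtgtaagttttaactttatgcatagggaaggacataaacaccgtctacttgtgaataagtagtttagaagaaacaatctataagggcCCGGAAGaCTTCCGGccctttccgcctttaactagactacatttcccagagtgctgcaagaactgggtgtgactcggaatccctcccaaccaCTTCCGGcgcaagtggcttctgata
MRPL3: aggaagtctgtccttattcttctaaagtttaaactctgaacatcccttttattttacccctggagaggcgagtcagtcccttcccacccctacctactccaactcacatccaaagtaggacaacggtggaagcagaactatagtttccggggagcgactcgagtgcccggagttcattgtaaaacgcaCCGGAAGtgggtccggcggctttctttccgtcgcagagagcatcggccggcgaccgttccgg
MRPL11: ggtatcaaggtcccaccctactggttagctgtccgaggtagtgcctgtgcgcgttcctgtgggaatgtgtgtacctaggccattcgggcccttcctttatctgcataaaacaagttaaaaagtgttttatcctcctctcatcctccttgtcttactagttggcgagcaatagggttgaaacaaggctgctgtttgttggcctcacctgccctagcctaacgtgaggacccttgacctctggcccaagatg
MRPS18C: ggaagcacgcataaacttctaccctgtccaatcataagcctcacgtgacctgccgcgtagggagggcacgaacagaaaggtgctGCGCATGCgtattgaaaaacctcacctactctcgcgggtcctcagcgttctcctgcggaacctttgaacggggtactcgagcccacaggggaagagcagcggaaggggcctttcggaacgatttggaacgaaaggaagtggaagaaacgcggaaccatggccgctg
MRPS6: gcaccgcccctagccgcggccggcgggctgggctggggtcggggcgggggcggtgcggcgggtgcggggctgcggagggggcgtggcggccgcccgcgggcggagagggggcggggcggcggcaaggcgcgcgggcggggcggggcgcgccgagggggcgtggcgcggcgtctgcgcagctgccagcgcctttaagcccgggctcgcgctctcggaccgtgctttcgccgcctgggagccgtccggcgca
MRPL53: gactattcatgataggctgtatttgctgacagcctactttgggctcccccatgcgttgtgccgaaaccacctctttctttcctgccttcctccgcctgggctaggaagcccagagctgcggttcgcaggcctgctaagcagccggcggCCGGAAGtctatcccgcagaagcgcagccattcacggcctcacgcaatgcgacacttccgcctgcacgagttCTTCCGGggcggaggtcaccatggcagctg

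MRPS22, in its window picked by motif content, held 3 matches to the ETS letters, MRPL53 held 2 and MRPL3 held 1. The letters were thus present in genes that rose and in a gene that fell. MRPS18C held 1 match to the NRF1 letters. Windows of 250 bases before to 50 after the start were available for 69 of the 78 members, and 11 members had several windows. A gene was counted if any of its windows held the letters, so genes with several windows could match more easily. The ETS letters were in 43.5% of the 69 members, in 12.2% of the 27305 genes with a window and in 22.2% of the 10272 tested genes with one. AAGATGGC, a core sequence bound by YY1, was in 30.4% of these members, in 3.52% of all genes and in 6.51% of the tested genes, and the NRF1 letters were in 8.70%, 3.68% and 6.38%. The TATA box letters TATAAA were in 4.35% of the members, 14.0% of all genes and 8.51% of the tested genes. The SP1 letters GGGCGG were in 60.9%, 48.3% and 75.9%, and the CCAAT letters in 33.3%, 39.7% and 42.9%. At least 1 of the ETS, NRF1 and YY1 sequences was present in 65.4% of the 26 members that rose and in 62.5% of the 40 that did not pass, and the ETS letters alone in 57.7% and 35.0%. These are descriptions of letters in a fixed window, not of bound factors.

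In the large subunit, 19 of 51 tested members rose and 1 fell, with a median log2 fold change of 0.41. The count of those higher was 12 without OE-MMP28 replicate 2 and 9 without OE-MMP28 replicate 3. The 29 large subunit proteins with a bacterial counterpart gave 13 higher and 0 lower by edgeR (17 and 0 at an unadjusted p under 0.05) with a median of 0.46. This count of 0, and each count of 0 given below for calls in a direction, was also 0 by DESeq2, limma voom and limma on log2(FPKM + 1). The 22 proteins added in mitochondria gave 6 higher and 1 lower with a median of 0.32. Among the former, MRPL21 stood at 19.5, 17.3 and 17.1 FPKM in Vector and at 31.1, 31.6 and 34.8 FPKM in OE-MMP28 (log2 fold change 0.87, SE 0.15, adjusted p = 3.74e-04). MRPL20 went from 16.0, 9.98 and 14.2 FPKM to 20.5, 23.2 and 25.6 FPKM (log2 fold change 0.80, SE 0.18, adjusted p = 0.00307), the Vector libraries being the more spread. Neither gene had overlapping groups.

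The other large subunit proteins with a bacterial counterpart that rose span several functional sites. MRPL47, MRPL24 and MRPL17 line the exit of the peptide tunnel, and their log2 fold changes were 0.80, 0.65 and 0.53. MRPL27 and MRPL16 lie near the tRNAs at the peptidyl transferase centre and changed by 0.78 and 0.71. MRPL28 (0.72), MRPL14 (0.61), MRPL12 (0.73) and MRPL4 (0.57) completed the group. MRPL24, the most abundant of these, was measured at 39.2, 41.4 and 33.5 FPKM in Vector and at 50.3, 56.9 and 70.0 FPKM in OE-MMP28. In MRPL14, MRPL12 and MRPL4, 1 OE-MMP28 library lay within the Vector range, and MRPL4 was the closest to the threshold of all members called (adjusted p = 0.0494), passing in 5 of 20 alternatives.

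The flexible stalk of the large subunit, which recruits translation factors, is built from MRPL12 dimers anchored by MRPL10. MRPL12 stood at 21.7, 10.5 and 10.5 FPKM in Vector and at 17.6, 22.3 and 30.2 FPKM in OE-MMP28 (adjusted p = 0.0427, passing in 10 of 20 alternatives), so that Vector replicate 1 reached the OE-MMP28 range. Its anchor MRPL10 stood at 13.1, 11.8 and 13.3 FPKM against 11.5, 13.1 and 13.4 FPKM, a log2 fold change of 0.0040 (SE 0.16) whose sign changed under 14 alternatives. The groups overlapped completely in MRPL10. The difference between these 2 genes was not tested.

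Of the large subunit proteins added in mitochondria, MRPL54 (0.97), MRPL52 (0.82), MRPL57 (0.62), MRPL39 (0.58), MRPL51 (0.54) and MRPL48 (0.51) rose, with adjusted p between 0.00205 and 0.0368. MRPL54 stood at 9.39, 7.67 and 6.22 FPKM in Vector and at 10.8, 14.3 and 20.1 FPKM in OE-MMP28. MRPL51 overlapped between groups, Vector replicate 1 (43.9 FPKM) lying above OE-MMP28 replicate 1 (42.3 FPKM). MRPL45, which fixes the ribosome to the inner membrane, did not pass (0.12, adjusted p = 0.634), nor did MRPL58, a peptidyl-tRNA hydrolase built into the ribosome (0.13, adjusted p = 0.631).

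MRPL53 fell, against the direction of most members. This large subunit protein added in mitochondria (chr2:74471958-74473322, minus strand) stood at 3.21, 5.23 and 3.64 FPKM in Vector and at 1.93, 1.41 and 1.24 FPKM in OE-MMP28. All Vector libraries were above all OE-MMP28 libraries (log2 fold change -1.39, SE 0.30, edgeR adjusted p = 0.00232). CCDC142 overlaps 45.2% of its exonic bases in the same orientation and had a log2 fold change of -0.60 (adjusted p = 0.0652), so reads of the shared stretch cannot be assigned with certainty. MRPL43 was also lower but did not pass (-0.52, adjusted p = 0.0537), and SEMA4G, which covers 32.8% of its exon length on the opposite strand, fell by 0.80 on the log2 scale. Whether the counting used strand is not given in the sources used here.

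**Figure D2:**
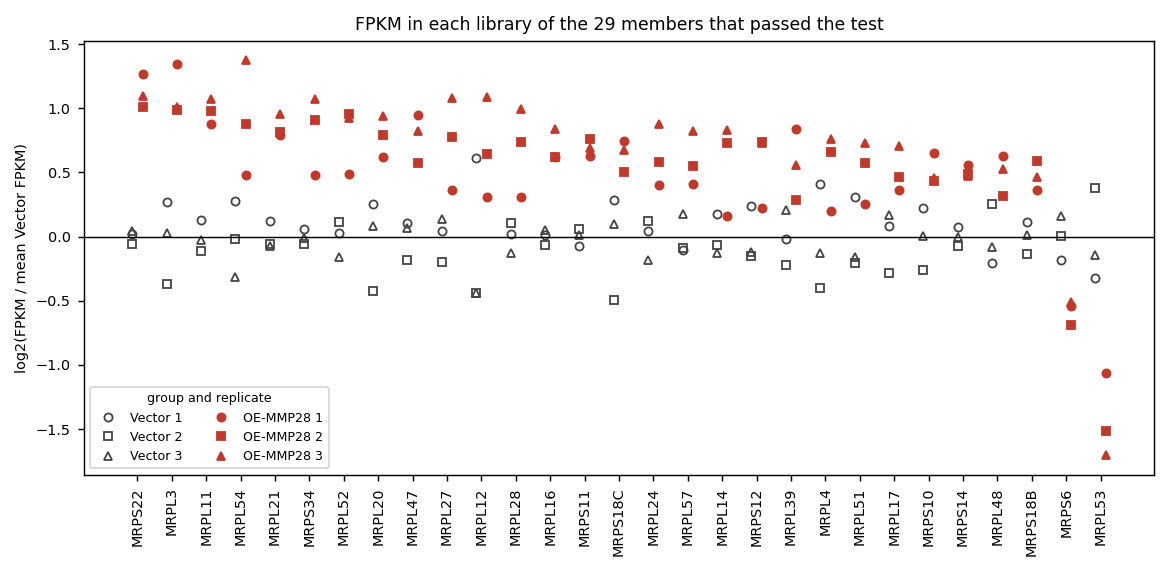
FPKM of the 29 members that passed the test in each of the 6 libraries, divided by the gene's mean over the 3 Vector libraries and shown on a log2 axis (y); open symbols are Vector, filled symbols OE-MMP28, and the shape gives the replicate. In 22 of the 27 members that rose, and in MRPS6 and MRPL53, the groups do not overlap.

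In the small subunit, 8 of 25 tested members rose and 1 fell, with a median log2 fold change of 0.38. The count of those higher was 4 without Vector replicate 2, 3 without Vector replicate 3, 3 without OE-MMP28 replicate 2 and 5 without OE-MMP28 replicate 3. The 15 tested proteins with a bacterial counterpart gave 5 higher and 1 lower (median 0.24), and the 10 added in mitochondria gave 3 higher and 0 lower by edgeR (7 and 0 at an unadjusted p under 0.05) with a median of 0.39. MRPS34, an added protein, was the second most abundant member, at 66.7, 61.4 and 63.5 FPKM in Vector and 88.9, 120 and 135 FPKM in OE-MMP28 (log2 fold change 0.86, SE 0.17, adjusted p = 0.0010). The Vector libraries lay close together and below all OE-MMP28 libraries. MRPS11, which sits on the platform of the small subunit, was far less abundant, at 2.57, 2.83 and 2.74 FPKM against 4.18, 4.60 and 4.37 FPKM (0.70, SE 0.17, adjusted p = 0.00515). Its replicates were tight and the groups well apart.

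MRPS12, which lies at the decoding centre, rose by 0.59 on the log2 scale. MRPS10 and MRPS14, both in the head of the small subunit, rose by 0.53 and 0.51. OE-MMP28 replicate 1 of MRPS12 (12.8 FPKM) lay within the Vector range, whose top was 12.9 FPKM, while the groups were apart in MRPS10 and MRPS14. SARS2, the mitochondrial seryl-tRNA synthetase, overlaps 16.3% of the exon length of MRPS12 on the opposite strand and did not pass (0.25, adjusted p = 0.645).

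MRPS6 fell. It encodes the mitochondrial S6 (chr21:34073224-34143034, plus strand), a platform protein that in bacteria pairs with S18. MRPS6 was an abundant member, at 43.5, 49.3 and 55.0 FPKM in Vector and at 33.8, 30.5 and 34.5 FPKM in OE-MMP28, with no overlap (log2 fold change -0.57, SE 0.15, adjusted p = 0.00809). It passed in 18 of 20 alternatives and missed the threshold without Vector replicate 3 and without OE-MMP28 replicate 2 (highest adjusted p = 0.0775). SLC5A3, an inositol transporter gene read in the same orientation, shares 6.35% of its exonic bases and fell by 0.56 (adjusted p = 0.0149).

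The 3 genes of the MRPS18 family encode homologs of bacterial S18 that sit at different places. In the class counts above, only MRPS18C was placed among the proteins with a bacterial counterpart. MRPS18A and MRPS18B were counted among those added in mitochondria, so MRPS18B is among the added small subunit proteins that rose. MRPS18C and MRPS18B are in the small subunit, and MRPS18A, despite its name, is in the large subunit, as is MRPS30. MRPS18B stood at 32.1, 26.9 and 29.9 FPKM in Vector and at 38.1, 44.5 and 40.8 FPKM in OE-MMP28, and MRPS18C at 2.85, 1.66 and 2.50 FPKM against 3.91, 3.31 and 3.73 FPKM. Both rose without overlap, by 0.48 (adjusted p = 0.0253) and 0.65 (adjusted p = 0.0254) on the log2 scale. MRPS18A, at 8.91, 17.1 and 9.04 FPKM against 11.3, 12.4 and 12.1 FPKM, had a log2 fold change of 0.045 (adjusted p = 0.914), its Vector replicate 2 being the highest of the 6 libraries. ABRAXAS1 covers 40.2% of the exon length of MRPS18C on the opposite strand and moved the other way, falling by 0.78 (adjusted p = 0.00518).

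Abundant and scarce members were found both among those that passed and among those that did not. The most abundant member, MRPS35, stood at 105, 100.4 and 100.4 FPKM in Vector and at 144, 119 and 111 FPKM in OE-MMP28 and did not pass (0.30, adjusted p = 0.140), although its groups did not overlap. The third most abundant, MRPL15, had a log2 fold change of -0.086 (adjusted p = 0.760). At the low end, MRPL38 and MRPL46 had means of 0.888 and about 1 FPKM and did not pass (-0.37 and 0.45). Of the 3 members with the largest changes among those that did not pass, MRPS28 (0.54) and MRPL55 (0.51) were positive and MRPL43 was negative. MRPS36, which is named as a ribosomal protein but belongs to 2-oxoglutarate dehydrogenase, was at 0.21 (adjusted p = 0.366).

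MRPS24 had 7, 2 and 3 reads in Vector and 0, 8 and 9 reads in OE-MMP28 and was not tested. The read-through gene URGCP-MRPS24, which covers 23.2% of its exon length, had a count of 0 in all libraries. Other gene models share exon sequence with 40 of the 77 tested members, and with 25 of them over 10% or more of the exon length, MRPL12 at 68.2% being the highest of those called. The table also lists 75 pseudogenes named after members, 54 of them with no read in any library. Only MRPL45P2 (443 reads in all) and MRPS31P5 (147 reads) could be tested, and neither passed (adjusted p = 0.991 and 0.511).

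In FPKM alone, the groups did not overlap in 34 members that were higher and 3 that were lower in OE-MMP28, and they overlapped in 40. Over all genes tested, 19% were higher and 19.1% lower without overlap. Of the 48 members that did not pass the test, 12 were higher and 1 was lower without overlap.

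Members are scattered over the genome, and on some chromosomes their changes went in the direction of the other genes there, while on others they did not. Members that could be tested lay on 21 chromosomes, and those that rose on 13. Chromosome 2 held 8 members, of which 0 were called higher and 1 (MRPL53) lower by edgeR (the same numbers at an unadjusted p under 0.05), with a median log2 fold change of -0.16, and the other tested genes of that chromosome had a median of -0.41, with 34.8% of them lower. On chromosome 11, 5 of 7 members rose (median 0.53), where the other genes had a median of 0.25 and 24.4% of them were called higher. On chromosome 3, 3 of 4 rose (median 0.96), namely MRPS22, MRPL3 and MRPL47. The other genes there had a median of 0.22, and 24.6% of them were called higher. The 1 member on chromosome 14, MRPL52, rose where 50.5% of the other tested genes were called higher and their median was 0.56. On chromosome 8, in contrast, 3 members had a median of 0.20 where the other genes had -0.34 and 28.8% of them were lower. The medians also differed in sign on chromosome 7 (3 members, 0.15, other genes -0.072) and chromosome 20 (1 member, 0.40, other genes -0.023). On chromosome 16 both members rose (median 0.79), where the other genes had a median of 0.0021 and 12.2% of them were called higher.

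To set each member beside its surroundings, the median log2 fold change of the other tested genes within 10 Mb was taken as its local median. It was 0.66 around MRPS22, 0.55 around MRPL3, 0.31 around MRPL11, -0.46 around MRPL53 and 0.075 around MRPS6. Of the 12 members with a local median over 0.2, 10 rose, against 17 of 52 between -0.2 and 0.2 and 0 of 13 under -0.2 (edgeR calls, the last also 0 at an unadjusted p under 0.05). Over all genes tested 11.7% were called higher, but their share within each of these bands was not counted. The numbers per band are therefore not a result about the members alone. The member was above its local median in 70 of 77 cases, and the median of member minus local median was 0.38. Spearman's rho between the member's fold change and its local median was 0.53 across the 77 members, which share libraries and, for near neighbours, many of the same surrounding genes. What produced the regional differences was not tested.

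**Figure D3:**
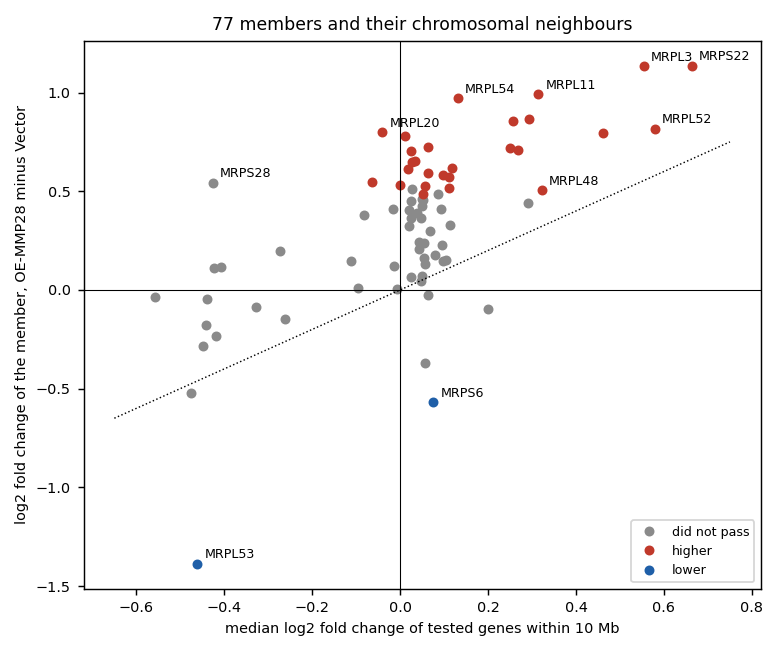
Log2 fold change of each tested member (y axis) against the median log2 fold change of the other tested genes within 10 Mb (x axis), one point per gene, with the dotted line marking equal values. Most points (70 of 77) lie above the line, and 10 of the 12 members whose surroundings exceed 0.2 passed as higher (red). The share of all genes tested that rose in such surroundings was not counted.

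With the local median entered as an offset in the edgeR model, so that each gene is compared with its surroundings, 18 members were called higher and 2 lower, where 7.19% and 7.99% of all genes tested were called. Of these 18, 15 were among the 27 above. MRPL52 (0.24, adjusted p = 0.388), MRPL48 (0.18, adjusted p = 0.513) and MRPL47 (0.34, adjusted p = 0.177) had the highest local medians of the 12 that no longer passed. MRPL16 and MRPL28 had local medians of 0.27 and 0.25. The rest of the 12 had local medians of only 0.051 to 0.12, namely MRPS18B, MRPL12, MRPS12, MRPL39, MRPL4, MRPS14 and MRPL57. Their adjusted p with the offset lay between 0.0565 and 0.139. MRPS28, MRPL35 and MRPS16, whose surroundings were at -0.43, -0.41 and -0.42, passed in this setting, with 0.97, 0.52 and 0.53. MRPS22 (0.47, adjusted p = 0.0411) and MRPL3 (0.58, adjusted p = 0.0236) still passed.

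Many members start close to another gene on the opposite strand. A start within 1000 bases was found for 34 of the 78, and in 30 such pairs both genes were tested. MRPS11 and MRPL46 are each other's partner, so their pair was counted from both sides. Over all genes tested 11.7% were called higher and 11.6% lower, and whether the partners differ from this was not tested. Where the member rose (15 pairs), the partner rose in 3, fell in 0 and did not pass in 12 by edgeR (3 and 0 at an unadjusted p under 0.05). Where the member did not pass (15 pairs), the partner rose in 2 and fell in 3. The 2 that rose were MRPS11, already counted as a member that rose, and NDUFS6. MRPL47 and NDUFB5, a subunit of respiratory complex I, start 36 bases apart and rose by 0.80 and 0.65. MRPS11 and MRPL46, both members, start 34 bases apart, and MRPL46 had 0.45 (adjusted p = 0.204). MRPL36 did not pass (-0.095), whereas its partner NDUFS6, also of complex I, rose by 1.07 (adjusted p = 6.52e-04).

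The rRNAs that these proteins bind went the other way. MT-RNR2, the rRNA of the large subunit, had 311910, 335098 and 390999 reads in Vector and 174732, 121036 and 172121 reads in OE-MMP28. MT-RNR1, the rRNA of the small subunit, had 20847, 29658 and 25161 reads against 16561, 12459 and 17821 reads. The groups did not overlap for either. MT-RNR2 fell by 1.30 on the log2 scale (SE 0.16, edgeR adjusted p = 8.88e-06), and MT-RNR1 fell by 0.85 (SE 0.17, adjusted p = 0.00139), and in FPKM a two-sided exact permutation test gave p = 0.1 for each, the smallest that 3 against 3 libraries allow. Together they took 2.58% ± 0.33 of all counts in Vector and 1.06% ± 0.18 in OE-MMP28 (SD, n = 3). How rRNA was removed or mRNA selected before sequencing is not given in the sources used here, and its part in these levels was not tested.

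The ratio of MT-RNR2 to MT-RNR1 reads was 14.96, 11.3 and 15.5 in Vector replicates 1 to 3 and 10.6, 9.71 and 9.66 in OE-MMP28 replicates 1 to 3. It was 13.9 ± 2.3 in Vector and 9.97 ± 0.50 in OE-MMP28 (SD, n = 3), with no overlap (two-sided exact permutation p = 0.1). The mRNAs of the subunits gave a ratio of summed FPKM, large to small subunit, of 1.61 ± 0.058 in Vector and 1.72 ± 0.058 in OE-MMP28 (SD, n = 3), with the groups overlapping. Nuclear copies of MT-RNR2 named MTRNR2L numbered 13 in the table, and none had more than 18 reads over the 6 libraries.

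Next to the rRNA genes on the mitochondrial genome, the tRNA genes on both sides of MT-RNR2 were lower too, with a log2 fold change of -1.58 for MT-TV (adjusted p = 8.98e-04) and of -1.91 for MT-TL1 (adjusted p = 4.98e-06). Of the 13 mRNAs, MT-ND1, which follows MT-TL1, fell by 0.83 (adjusted p = 0.00116), MT-ND2 fell by 0.55 (adjusted p = 0.0250, and 0.414 with the local-median offset) and the other 11 did not pass, MT-CYB being the highest at 0.32 (adjusted p = 0.196). The 17 tested tRNA genes gave 8 lower and 0 higher by edgeR (11 and 0 at an unadjusted p under 0.05), at several places along the genome. Among the 8, MT-TW had only 15, 15 and 14 reads in Vector and 4, 7 and 1 in OE-MMP28. MT-TS1 had 41, 26 and 36 against 10, 16 and 11 reads, and MT-TV had 78, 93 and 123 against 24, 33 and 52. The most reads of the 8 were on MT-TP, with 3053, 3599 and 3698 against 2358, 1588 and 2483. Summed over the 13 mRNAs, the share of counts was 11.1% ± 1.28 in Vector and 9.64% ± 1.53 in OE-MMP28 (SD, n = 3), with overlapping libraries.

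**Figure D4:**
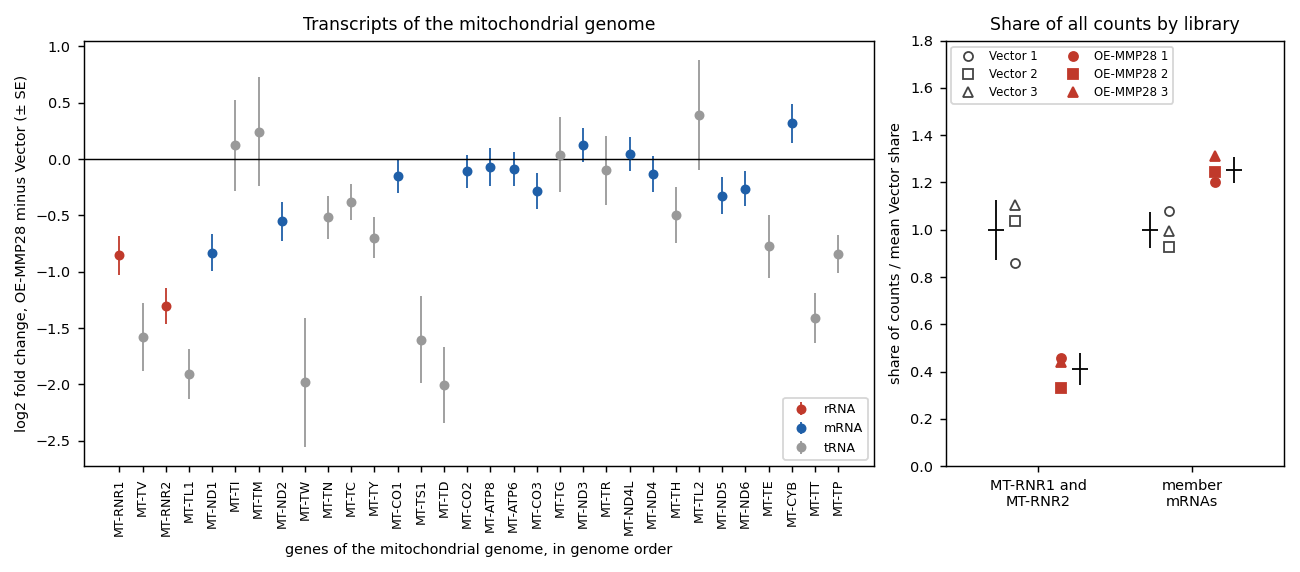
Left, log2 fold change (y axis, OE-MMP28 minus Vector, ± SE) of the 32 tested genes of the mitochondrial genome in their order along it, with rRNAs red, mRNAs blue and tRNAs grey. Right, the share of all counts taken by the rRNAs and by the member mRNAs in each library, divided by the Vector mean (crosses, mean ± SD, n = 3): the rRNA share is lower and the member share higher in all 3 OE-MMP28 libraries than in any Vector library.

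The other genes of mitochondrial gene expression were grouped into 7 lists by role. Of the 107 tested, 15 rose and 4 fell (14.0% and 3.74%, beside 11.7% and 11.6% of all genes tested and 13.5% and 12.1% of protein-coding genes), with a median log2 fold change of 0.15. The share that rose was thus near the background. The numbers were 7 and 1 without OE-MMP28 replicate 2, 9 and 3 without OE-MMP28 replicate 3, and 10 and 2 without Vector replicate 3. Translation factors and the membrane insertase gave 5 of 14 higher and 0 lower by edgeR (6 and 0 at an unadjusted p under 0.05). GFM1, the elongation factor that moves the ribosome along the mRNA, stood at 5.95, 3.62 and 4.37 FPKM in Vector and at 12, 10.3 and 8.93 FPKM in OE-MMP28, with no overlap (1.17, SE 0.18, adjusted p = 1.14e-04). TUFM and TSFM, the elongation factor that brings tRNA and its exchange factor, rose by 0.68 and 0.44, TACO1, an activator of MT-CO1 translation, by 0.55, and OXA1L, which inserts the new proteins into the membrane, by 0.76. TSFM was at the threshold (adjusted p = 0.0494) and passed in 2 of 20 alternatives. With the local-median offset OXA1L (0.18, adjusted p = 0.445), TUFM (0.37, adjusted p = 0.108) and TSFM (0.38, adjusted p = 0.120) did not pass, and GFM1 and TACO1 did.

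Enzymes that charge mitochondrial tRNAs gave 4 of 20 higher, among them EARS2 (0.86), NARS2 (0.84) and GATC (0.50), and 0 lower by edgeR (7 and 1 at an unadjusted p under 0.05). Their median was 0.35. Assembly and rRNA modification factors gave 3 of 26 higher and 1 lower (median 0.14), and the 11.5% that were higher lay at the 11.7% of all genes tested. MALSU1, which binds MRPL14 and keeps the large subunit from joining early, rose by 0.56, MPV17L2 by 0.82 and C1QBP by 0.52, while the assembly GTPase MTG1 fell by 0.77. With the local-median offset MTG1 (-0.41, adjusted p = 0.256) and GATC (0.18, adjusted p = 0.541) did not pass. Nor did NARS2 (0.47, adjusted p = 0.0601) and C1QBP (0.44, adjusted p = 0.0560), while EARS2, MALSU1 and MPV17L2 did. GATC passed in 9 of 20 alternatives and MTG1 in 14. Among 21 genes of mitochondrial transcription and RNA processing, SLIRP, which with LRPPRC stabilises mitochondrial mRNAs, rose by 1.36 (adjusted p = 8.88e-06) and the transcription factor TFB2M by 0.70, and 0 fell by edgeR (5 higher and 2 lower at an unadjusted p under 0.05). LRPPRC itself did not rise with SLIRP. It was lower at an unadjusted p under 0.05 but did not pass (-0.36, adjusted p = 0.101). With the local-median offset LRPPRC was at 0.0092 (adjusted p = 0.978).

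Of the 5 ribosomal proteins of mitochondria that do not carry an MRPL or MRPS name, PTCD3 fell by 0.43 (adjusted p = 0.0349) and AURKAIP1, DAP3, GADD45GIP1 and CHCHD1 did not pass, with 0.44, 0.26, 0.31 and 0.13. PTCD3 lies on chromosome 2, where its local median was -0.41. Among 8 tested nuclear regulators, PPARGC1B, a coactivator of mitochondrial genes, rose by 0.67 (adjusted p = 0.0335), and GABPA, NRF1, YY1, ESRRA and MYC did not pass, with 0.066, -0.033, 0.33, 0.21 and 0.10. PPARGC1B was scarce, with means of 0.548 FPKM in Vector and 0.864 FPKM in OE-MMP28. It passed in 12 of 20 alternatives and did not pass with the local-median offset (0.60, adjusted p = 0.0692).

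**Figure D5:**
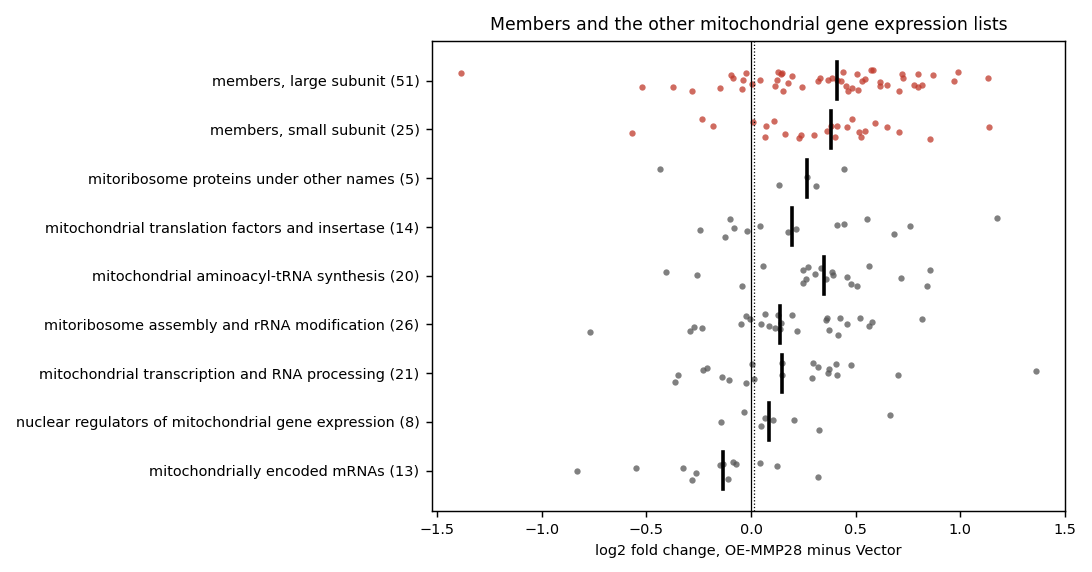
Log2 fold change (x axis, OE-MMP28 minus Vector) of each tested gene in the members by subunit (red) and in the other lists of mitochondrial gene expression (grey), with the number tested in brackets, black bars at the list median and the dotted line at the median of all genes tested. The medians are 0.41 and 0.38 for the member subunits, 0.35 for tRNA charging and -0.13 for mRNAs of the mitochondrial genome.

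For comparison with the 35.1% of members that rose and the 2.60% that fell, 2 other sets were counted in the same way, the nuclear genes of the respiratory chain and the proteins of the cytosolic ribosome. Of 82 tested nuclear respiratory chain genes, 33 rose and 1 fell (40.2% and 1.22%, median 0.42). Of 81 tested cytosolic ribosomal protein genes, 10 rose and 3 fell (12.3% and 3.70%, median 0.13). The difference between these sets and the members was not tested.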

How the data were processed

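Gene expression was measured by RNA sequencing in 6 libraries of AsPC-1 cells, grouped from the sample titles as Vector (n = 3) and OE-MMP28 (n = 3). Per the labels, libraries were made from RNA with a NEBNext Ultra kit. In the authors' deposited table, values per gene and library are raw read counts, neither normalized nor pooled. The submitters' processing notes name HISAT2 2.0.5 and featureCounts 1.5.0-p3, and the genome build, strand setting and handling of reads with several matches are not given in the sources used here. Identifiers and coordinates of all 58735 genes were those of GENCODE 29 on GRCh38. The authors also deposited FPKM values, scaled by gene length and library total, and columns of log2 fold changes and p-values from their own comparison, which were not used. Per-sample columns left unmapped numbered 0.

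Members were selected by symbol and biotype. The members, gene lists and tests were chosen with earlier results of these data known. Counts were tested with edgeR 4.0.16 (R 4.3.3; glmQLFit and glmQLFTest) after filterByExpr (minimum count 10, minimum total 15), TMM scaling and a design of group only, with Benjamini-Hochberg adjustment over 15319 genes. Named members were those that passed, the 3 with the highest and the 3 with the lowest mean FPKM, those untested, the MRPS18 paralogs, the stalk, membrane anchor and release factor proteins, MRPS36, and the 3 largest changes among those that did not pass. From the other lists, genes that passed were named, except 1 that is not reported here, and further genes were given as neighbours of named ones. The fits were checked on simulated data.

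Libraries held 13633249 to 16691458 counts, and a count of 0 allows up to 3 counts, or 0.180 to 0.220 CPM, for counting error only. The alternatives were leaving out each library, a block on replicate number, other scalings, DESeq2 1.42.0, limma 3.58.1 (voom, and log2(FPKM + 1) or log2(FPKM + 0.1) with a mean of at least 0.5 FPKM), no filter, omission of mitochondrial or noncoding genes, and offsets for the local median (10 Mb, at least 10 neighbours) or gene length. Offsets for GC content with length, alone and with the block, and the restriction to members sharing under 10% of exon length were added after seeing the data. Promoter windows came from RefSeq (GRCh38.p14), matched by symbol for 69 members.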

Additional observations from a re-analysis of the deposited data

How the results depend on the processing

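The median log2 fold changes of the members and of each subunit stayed positive in all 20 alternatives, and MT-RNR1, MT-RNR2 and MMP28 passed in all that were run for them. The rRNA genes could not be run without mitochondrial genes or with protein-coding genes only, and with the local-median offset MT-RNR1 was at -0.53 (adjusted p = 0.0414) and MT-RNR2 at -0.98 (adjusted p = 2.70e-04). Counts of calls moved more. With 1 library left out at a time, members called higher ranged from 14 to 31 and lower from 1 to 3. Large subunit members called higher ranged from 9 to 21 and lower from 1 to 2, and small subunit members from 3 to 10 and from 0 to 1. Pathway genes ranged from 7 to 20 higher and from 1 to 5 lower. In the same runs the median log2 fold change was 0.31 to 0.41 for all members, 0.31 to 0.41 for the large subunit and 0.33 to 0.44 for the small subunit. MT-RNR1 ranged from -1.01 to -0.66, MT-RNR2 from -1.42 to -1.17, MMP28 from 0.69 to 1.05, and the difference in the MT-RNR2 to MT-RNR1 ratio from -5.28 to -3.16.

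With limma on log2(FPKM + 1) or log2(FPKM + 0.1), 17 members were called higher, 12 in the large and 5 in the small subunit, and 1 pathway gene was called lower. With the pseudocount of 1, 9 pathway genes were called higher. The local-median offset left 11 large subunit members higher and 1 pathway gene lower, and without mitochondrial genes 2 pathway genes were lower, since 2 of the 4 are mitochondrial. Large subunit members called lower were 2 with DESeq2, with DESeq2 size factors or upper-quartile scaling in edgeR, without a filter, without mitochondrial genes, with protein-coding genes only, with the gene-length offset, and with the offset for GC content and length with and without the block. Among members sharing under 10% of their exon length with another gene, 1 was called lower. For these the cause was not tested, except that MRPL53, which shares 45.2%, is left out by that restriction.

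For 60 genes covered by the naming rule, 1198 values were recomputed: 968 kept direction and side of the threshold, 190 no longer passed, 16 newly passed and 24 changed sign. Among these 60 the sign changed only in genes that had not passed. Of the other members and the nuclear regulators given with a value, GABPA and NRF1 changed sign in 3 alternatives each, MRPL36 in 2, and YY1, ESRRA and MRPS16 in 1 each, none of which had passed. MRPL10 was at -0.015 with DESeq2, DESeq2 size factors in edgeR, -0.043 with upper-quartile scaling, -0.0083 and -0.0090 with limma on log2(FPKM + 1) and log2(FPKM + 0.1), -0.0056 without a filter, -0.025 without mitochondrial genes, -0.016 with protein-coding genes only, -0.052 with the length offset, -0.074 and -0.076 with the GC and length offset without and with the block, and -0.049 to 0.059 without single libraries. MRPS18A was at -0.0054 with upper-quartile scaling, -0.0034 with the local-median offset, -0.015 with the GC and length offset, and -0.12 to 0.42 without single libraries. MRPL15 was at 0.24 with the local-median offset and at -0.27 to 0.025 without single libraries, and MRPL45 at -0.011 without Vector replicate 2. The cause was not tested.

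Replicate numbers are shared between the groups, but the deviations of same-numbered libraries from their group means correlated at 0.017, 0.0080 and -0.088 across genes, so the numbers were not taken to pair the libraries. With the replicate block, 30 members were called higher, among them all 27 called without it, and 3 lower, 2 of these in the large subunit. Reads were few for MRPS24, with at most 9 in a library, and for members at about 1 FPKM such as MRPL38 and MRPL46. Other gene models share 23.2%, 42.2% and 11.3% of the exon length of MRPS24, MRPL38 and MRPL46. Why these counts were low was not tested.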
